A study of Rattus norvegicus with 2 samples.

Results

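Neuropeptide cotransmitter genes, 10 in all, were followed in the sympathetic neurons of the rat stellate ganglion, the ganglion that supplies most of the sympathetic innervation of the heart. The members were the rows named Npy, Gal, Sst, Vip, Penk, Tac1, Cartpt, Adcyap1, Calca and Calcb, matched by gene symbol. The list was drawn up with earlier results of these data known. All 10 were found among the 25395 gene names listed once in both libraries. Droplet single-cell RNA sequencing (scRNAseq, 10x Genomics 3' v3) was made on dissociated stellate ganglia of Wistar rats, which are normotensive, and of SHRs (spontaneously hypertensive rats) at a prehypertensive stage. Animals of both strains were 5 to 6 weeks of age and carried no treatment in the labels. They were male by the methods of the study, and their ganglia were dissociated with collagenase and trypsin. The number of animals behind each library is not given in the sources used here. There was 1 library per strain, so the strains could not be tested against each other, and every difference below is a difference between these 2 libraries without a replicate check.

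Sympathetic neurons release noradrenaline together with peptides, which are made as larger precursors, cut by convertases, packed into large dense-core vesicles and released preferentially during high-frequency firing. NPY is the classical cotransmitter of noradrenergic neurons, where it constricts vessels and, through presynaptic Y2 receptors, restrains vagal transmission in the heart. Galanin also restrains vagal transmission, whereas VIP and CGRP are vasodilators better known from cholinergic sympathetic and sensory neurons.

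Promoter sequences are shown because several of these genes are textbook targets of cAMP signaling, which acts through the cAMP response element (CRE). RefSeq promoter windows on the GRCr8 assembly, 250 bases before to 50 bases after the annotated start, were found for 8 of the 10 genes and not for Penk and Calcb. The full CRE, TGACGTCA, reads the same on both strands. It stood in 2 of the 8 windows, Sst and Cartpt, and in 1.83% of all 33469 windows. The core TGACG, searched on both strands and contained in the full CRE, stood in 6 of the 8 windows and in 21.2% of all windows. The AP-1 motif TGANTCA stood in 0 of the 8 windows and in 7.33% of all windows. A match describes letters only and says nothing about factor binding in these neurons. The windows of 30 bases around the matches follow, 5′ to 3′ on the strand of the gene, with the TGACG core, its reverse complement or the full CRE in capitals.
Sst (chr11:90461537-90461566, plus strand, full CRE from base 3 of the annotated transcript): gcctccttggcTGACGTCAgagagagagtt
Cartpt (chr2:32991359-32991388, minus strand, full CRE 142 bases before the start): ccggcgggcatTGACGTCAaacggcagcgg
Vip (chr1:44470371-44470400, plus strand, core 97 bases before the start): ggatcaccactgTGACGtctttcgaggagc
Gal (chr1:210084618-210084647, minus strand, core 63 bases before the start): gcgctgagcgggTGACGcggcagctcccac
Calca (chr1:178317624-178317653, minus strand, core 112 bases before the start): gaagcaccgaggTGACGcaatctgtctggg
Tac1 (chr4:36645365-36645394, plus strand, core on the other strand 206 bases before the start): tccctaaaattgCGTCAtttcgaacccaat
Neither Adcyap1 nor Npy had the core in its window. The 250 bases before the annotated start of Npy, the most abundant of the 10 transcripts, are printed for comparison without capitals, as no core was found.
Npy (chr4:80211861-80212110, plus strand): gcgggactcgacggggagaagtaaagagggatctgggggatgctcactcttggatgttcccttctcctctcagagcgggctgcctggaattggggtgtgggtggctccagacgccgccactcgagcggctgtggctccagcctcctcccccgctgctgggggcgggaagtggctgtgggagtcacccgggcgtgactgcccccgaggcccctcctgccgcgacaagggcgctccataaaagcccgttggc

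Levels are given as the mean count per 10000 counts of a neuron, converted back from the deposited natural logs. In 3' sequencing a transcript is counted at its end, so these levels were not divided by gene length. The means hold more about depth than they state. A gene seen as 1 count in 1 neuron has a mean that depends only on the number of neurons and on the total of that neuron, so that many genes share exactly the same small value. From these shared values the Wistar library resolved to 315 neurons and the SHR library to 110, the numbers at which 84 of 87 and 82 of 83 testable totals came out as whole counts. Totals could be read for 249 Wistar neurons, with a median of 89715 counts and a range of 4010 to 227128, and for 109 SHR neurons, with a median of 103200 and a range of 4882 to 232544. Totals under 10000 counts were found for 39 of the 249 Wistar neurons (15.7%) and 7 of the 109 SHR neurons (6.42%). These shares cover only neurons with a recovered total, 249 of 315 in Wistar and 109 of 110 in SHR. Some recovered totals were not whole counts. One count in the neuron of median depth was worth 0.000354 per 10000 in Wistar and 0.000881 in SHR. In the shallowest neuron it was worth 0.00792 and 0.0186, so in SHR a mean near 0.01 can rest on very few counts.

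**Figure D1:**
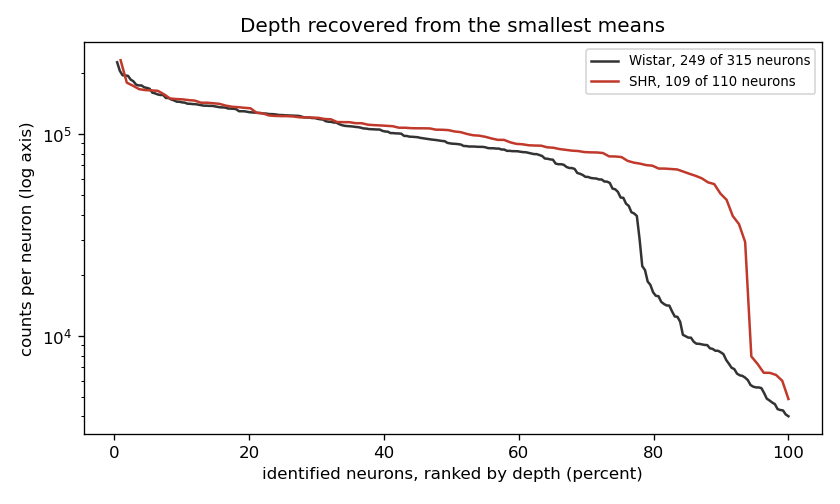
Counts per neuron (log axis) of the neurons whose totals were recovered from the smallest means, ranked from deepest to shallowest in percent, with 249 Wistar neurons in black and 109 SHR neurons in red. The deepest neurons hold 227128 counts in Wistar and 232544 in SHR, and the shallow tail under 10000 counts holds 15.7% of the Wistar and 6.42% of the SHR neurons.

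The neuropeptide transcripts were lower in the SHR neurons for 8 of the 10 genes and higher for Sst and Calcb. Their summed level was 4.06 per 10000 in Wistar neurons and 2.07 in SHR neurons, a change of -48.9%. Npy, Penk, Adcyap1 and Cartpt, each averaging at least 0.1 per 10000 over both libraries, were all lower in SHR, and the first 3 by at least 1.5 times. Npy is not past this size under every scaling: it was 1.39 times lower with the median log2 ratio of all genes set to 0 and 1.38 times lower per noradrenergic marker level, which leaves 2 of the 4. Across the 7621 genes that reached this average, 65.6% were lower and 34.4% higher in SHR, 26.5% were lower by at least 1.5 times, and 5.22% were higher by at least 1.5 times. With the median set to 0, 50.0% of them were lower, 17.3% lower by at least 1.5 times and 13.2% higher by at least 1.5 times, and the same 8 of the 10 neuropeptide genes remained lower. Penk reached the average only through its Wistar level, so it had to differ, and the other 6 genes were under it. With no minimum, 7 of the 10 genes were lower by at least 1.5 times, against 41.8% of the 16389 genes above 0 in either library, and Sst and Calcb were higher by this rule, against 12.4%. On a log2 scale, with 1 added to each mean and Wistar subtracted from SHR, the median difference was -0.13 over the 10 genes and -0.05 over the 7621 genes. A general shift toward lower SHR means in genes of low level is therefore part of the background. Between 0.01 and 0.1 per 10000, the range of Gal, Vip, Sst, Calca and Tac1, 73.5% of 3983 genes were lower in SHR. Among genes averaging like Penk and Cartpt the share was 72.5%, like Adcyap1 73.2% and like Npy 52.1%. The count of genes lower in SHR, 8 of 10, is read against these shares and lies near the shares at low level.

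**Figure D2:**
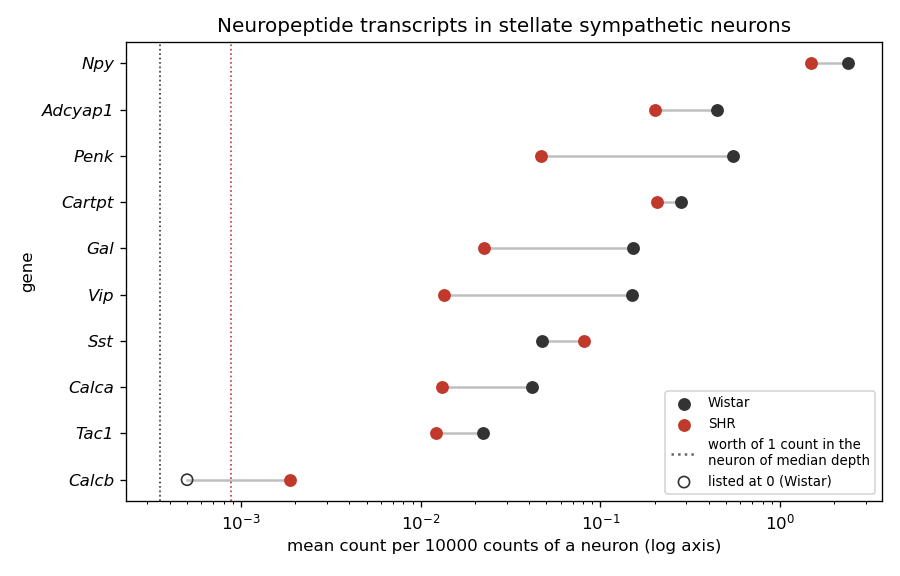
Mean count per 10000 (log axis) of the 10 neuropeptide genes in the Wistar (black) and SHR (red) library, 1 point per library, ordered by the average of both. Penk, Vip and Gal show the widest gaps, with the SHR point lower, Sst lies higher in SHR, and the open circle marks Calcb, listed at 0 in Wistar, drawn at an arbitrary position. Dotted lines give the worth of 1 count in the neuron of median depth.

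Npy was the most abundant of the 10 transcripts in both libraries. It stood at 2.38 per 10000 in Wistar, rank 635 among all genes, and at 1.48 in SHR, rank 1099. It was thus 1.61 times lower in SHR, a change of -37.8%, with a log2 difference of -0.45. Among the 762 genes of similar average, between 1.09 and 2.01 per 10000, 52.1% were lower in SHR and 13.8% were lower by at least 1.5 times. Npy made up 58.5% of the summed neuropeptide level in Wistar and 71.3% in SHR, because the other genes together differed more. Leaving Npy out, the sum changed by -64.6%. The study describes distinct sympathetic neuron populations that differ mainly in whether they express neuropeptide Y. The mean of Npy therefore also depends on their mix in each library, and the part of that mix in the Npy difference was not tested.

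The level of Npy was also set against the sum of the noradrenergic markers, which identify these neurons. The 10 noradrenergic genes, among them the transporter gene Slc6a2 and the synthesis enzyme genes Th and Dbh, were all listed above 0 in both libraries. Their sum was 60.6 per 10000 in Wistar neurons and 52.0 in SHR neurons, 1.17 times lower. Per 100 counts of these markers there were 3.92 counts of Npy in Wistar and 2.84 in SHR. The markers differed among themselves, with 8 of the 10 lower and 2 higher in SHR, against 65.6% and 34.4% of all genes past the minimum. Slc6a2 was at 15.9 and 15.2 per 10000 and Th at 10.2 and 10.1, while Dbh, whose product converts dopamine to noradrenaline inside the vesicle, was at 10.2 in Wistar and 6.36 in SHR, 1.60 times lower and close to the ratio of Npy. Ddc was 2.05 times lower in SHR, whereas Phox2a was 1.30 times and Hand2 1.81 times higher.

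Penk, the precursor gene of the enkephalins, differed most in ratio among the 4 neuropeptide genes that reached the minimum. Wistar neurons held 0.546 per 10000 and SHR neurons 0.0467, 11.7 times lower, with a log2 difference of -0.56. Summed over all neurons of a library, 315 in Wistar and 110 in SHR, Penk came to 172 counts per 10000 in Wistar and 5.13 in SHR. These sums grow with the number of neurons, so their gap is wider than that of the levels. The SHR value would be reached by 1 neuron holding 5.13 counts of Penk per 10000 and none in the others, and it would amount to 119 counts if all stood in the deepest identified neuron. A mean over neurons cannot tell fewer neurons with a transcript from less of it per neuron, and this holds for every gene here, Npy included.

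Adcyap1, which encodes the peptide PACAP, was at 0.445 per 10000 in Wistar and 0.200 in SHR, 2.22 times lower, with a log2 difference of -0.27. Of the 762 genes with a similar average, between 0.308 and 0.403 per 10000, 28.5% were lower in SHR by at least 1.5 times. The CART peptide precursor gene Cartpt differed least in ratio among the 4 genes, at 0.281 in Wistar and 0.205 in SHR, 1.37 times lower. Its log2 difference was -0.088, and 72.5% of the 761 genes of similar average, which also include Penk, were lower in SHR. In Wistar, Penk ranked above Adcyap1 and Cartpt (ranks 3170, 3772 and 5145), and in SHR it ranked below both (8790, 5390 and 5301). Adcyap1 and Cartpt were nearly level in SHR, 0.200 and 0.205 per 10000, and their order has no replicate spread to be read against.

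**Figure D3:**
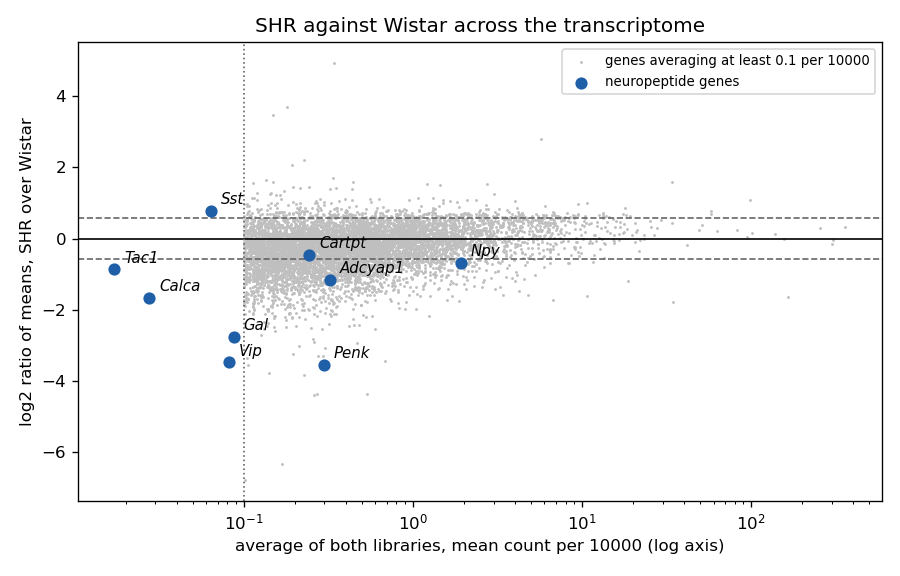
Log2 ratio of the means, SHR over Wistar, against the average of both libraries in counts per 10000 (log axis), with 1 gray point for each of the 7621 genes averaging at least 0.1 and blue points for 9 neuropeptide genes (Calcb has no ratio). Dashed lines mark 1.5 times in either direction and the dotted line the minimum of 0.1. Of the 4 blue points past the minimum, Penk lies lowest, 11.7 times lower in SHR, below Adcyap1 (2.22 times), Npy (1.61 times) and Cartpt (1.37 times).

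Vip and Gal had nearly the same level in Wistar and both were several times lower in SHR. Vip went from 0.150 to 0.0134 per 10000, 11.2 times lower, and Gal from 0.151 to 0.0224, 6.77 times lower. Their averages, 0.0818 and 0.0869 per 10000, were under the minimum. Of the 3983 genes listed above 0 in both libraries with an average between 0.01 and 0.1, 73.5% were lower in SHR and 9.29% were lower by at least 5 times. The SHR means are small in counts. Spread evenly over the identified neurons they would amount to 14.5 counts of Vip and 24.2 of Gal, and if all stood in the deepest identified neuron, to 34.3 and 57.3 counts. The corresponding even-spread values in Wistar, over the 249 neurons with a known total, were 320.4 and 323.2 counts.

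VIP in sympathetic ganglia is classically a product of cholinergic neurons. Of their 3 listed markers, Chat and Slc18a3 were nearly missing from both libraries, and Slc5a7 was not. Chat, the acetylcholine synthesis enzyme gene, was listed at 0 in both. Slc18a3, the vesicular acetylcholine transporter gene, was at 0.000393 per 10000 in Wistar and 0.000523 in SHR. Each of these values equaled exactly 1 count in 1 neuron. The choline transporter gene Slc5a7 held nearly all of the summed level of the 3 markers. It was at 0.432 in Wistar and 0.218 in SHR, 1.99 times lower.

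Sst, the somatostatin precursor gene, went the other way. Wistar neurons held 0.0473 per 10000 and SHR neurons 0.0807, 1.71 times higher, with a log2 difference of 0.045. Of the genes with an average between 0.01 and 0.1 per 10000, 10.3% were higher in SHR by at least 1.5 times. Relative to Npy, there were 1.99 counts of Sst per 100 counts of Npy in Wistar and 5.46 in SHR, whereas Penk went from 23.0 to 3.16 and Vip from 6.32 to 0.906 per 100 counts of Npy. Even-spread counts of Sst were 100.8 over 249 Wistar neurons and 87.1 over 109 SHR neurons. They are totals over unequal numbers of neurons and not levels to compare.

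The genes of peptides best known from sensory neurons were the least abundant. Calca, which encodes calcitonin and α-CGRP from alternative 3' exons that a gene-level count adds together, was at 0.0418 per 10000 in Wistar and 0.0131 in SHR, 3.19 times lower. Tac1, the precursor gene of substance P and neurokinin A, was at 0.0222 and 0.0121, 1.83 times lower. Calcb, the β-CGRP gene, was listed at 0 in Wistar and at 0.00187 in SHR, so no ratio was formed, and the SHR value equaled exactly 2 counts in 1 neuron of 97048 counts. Calca and Calcb are close paralogs, and reads that match both genes could be split or set aside in counting, which leaves their separate levels uncertain. Of 10 sensory neuron markers, Mrgprd, Prdm12 and Pou4f1 were listed at 0 in both libraries. Scn11a in SHR equaled exactly 1 count in 1 neuron, and Trpv1 was at 0.0245 in Wistar and 0.0354 in SHR. Avil held most of the summed level of this list, at 5.15 per 10000 in Wistar and 1.72 in SHR, followed by the neurofilament gene Nefh at 0.800 and 0.632. P2rx3 was at 0.0224 and 0.0422.

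Summed marker transcripts of other cell types in the neuron cluster were also lower in the SHR library. The counts below are read against the 65.6% of all genes past the minimum, and the 73.5% of genes between 0.01 and 0.1 per 10000, that were lower. All 9 listed satellite glia and Schwann cell markers were lower in SHR, with a sum of 9.43 per 10000 in Wistar and 3.47 in SHR, led by Apoe at 6.24 and 2.23. Fibroblast markers were lower in 6 of 6, with sums of 1.84 and 0.353. Of 9 immune markers 7 were lower, Ptprc was higher at 0.00388 and 0.00473, and Cd3e was at 0 in both. The immune sums were 1.29 and 0.424. Of 6 endothelial markers 5 were lower, with sums of 0.235 and 0.0642. Of 6 smooth muscle and pericyte markers 4 were lower and 2 higher, with sums of 0.120 and 0.0714 per 10000. Of 3 listed erythrocyte markers 1 was lower, 1 higher and Alas2 at 0 in both, with sums of 0.0669 and 0.0499. In the list for chromaffin and small intensely fluorescent cells, Pnmt, which marks adrenaline synthesis, was at 0.00175 in Wistar and listed at 0 in SHR, and the sum went from 6.40 to 4.41, nearly all of it Chga and Chgb, which neurons express too. The part of these cells, and of the larger share of shallow neurons among the recovered Wistar totals, in the neuropeptide differences was not tested.

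**Figure D4:**
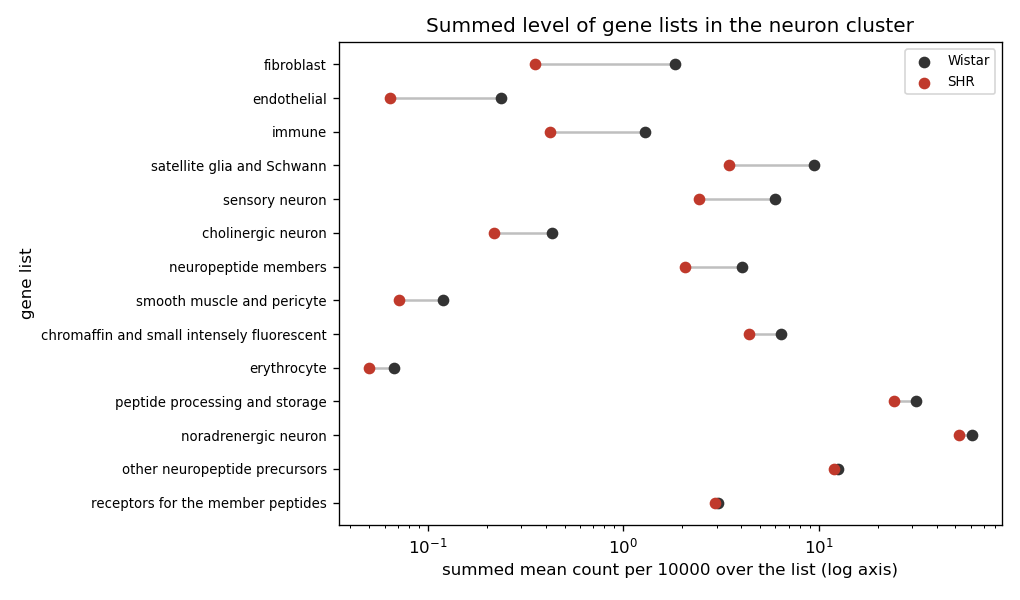
Summed mean count per 10000 (log axis) of each gene list in the Wistar (black) and SHR (red) library, ordered by the percent change of the sum. Fibroblast, endothelial, immune and glial markers have the widest gaps at the top, the neuropeptide genes (4.06 and 2.07) lie in the middle, and the noradrenergic, other precursor and receptor lists at the bottom have sums closer together.

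Genes that process and store peptides were lower in SHR for 11 of the 12 that reached the minimum, and 5 of the 12 by at least 1.5 times, against 65.6% and 26.5% of all genes. With the median of all genes set to 0 they were lower for 8 of the 12, and 4 of the 12 by at least 1.5 times, against 50.0% and 17.3%. The sum of the 14 listed genes was 31.6 per 10000 in Wistar and 24.2 in SHR. Scg5, which encodes the chaperone of prohormone convertase 2, was at 7.20 per 10000 in Wistar and 6.28 in SHR. Ptprn, a receptor-type phosphatase gene of the dense-core vesicle membrane, was at 4.59 and 2.58, 1.78 times lower. Chgb, a granin gene of the vesicle core, was at 3.78 and 3.10.

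The other neuropeptide precursors were nearly level between the libraries as a sum. Of 46 listed, 16 were at 0 in both libraries, 8 reached the minimum, and 4 of these were lower and 4 higher in SHR. Of all genes past the minimum, 65.6% were lower and 34.4% higher. With the median of all genes set to 0, 2 of the 8 were lower and 6 higher, against 50.0% of all genes in each direction. The sum was 12.6 per 10000 in Wistar and 12.0 in SHR, or 13.9 in SHR with the median of all genes set to 0, most of it from Scg2, the secretogranin II gene, at 9.49 and 8.89. Adm, the adrenomedullin gene, was at 0.916 and 1.14, and Vgf, a precursor gene of several secreted peptides, at 0.723 and 0.594.

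Receptors for the 10 genes' peptides, listed together with the accessory Ramp genes, were mostly low in these neurons. Over 26 listed genes, 8 of them at 0 in both libraries, the sum was 3.05 per 10000 in Wistar and 2.96 in SHR. With the median of all genes set to 0 it was 3.43 in SHR. Of the 5 that reached the minimum, 2 were lower and 3 higher in SHR, against 65.6% and 34.4% of all genes. By at least 1.5 times, 2 of the 5 were higher and 0 lower, against 5.22% and 26.5% of all genes. These 2 were Ramp2 and Npy1r, a receptor gene for NPY. Npy1r was at 0.0838 in Wistar and 0.133 in SHR, 1.59 times higher, and reached the minimum only through its SHR level. Galr2 counted as higher though nearly equal, at 0.242 in Wistar and 0.243 in SHR. The PACAP receptor gene Adcyap1r1 was the highest, at 1.66 per 10000 in Wistar and 1.19 in SHR, 1.39 times lower, beside its ligand gene Adcyap1, which was 2.22 times lower. Ramp2 and Ramp1, which encode accessory proteins of the CGRP and adrenomedullin receptors, were at 0.605 and 0.976 and at 0.312 and 0.260 per 10000. Both are part of the sum, so its near-equality is not one of receptor genes alone. Calcrl, the receptor gene that both need, was at 0.0041 in Wistar and listed at 0 in SHR.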

How the data were processed

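Sympathetic neurons from 1 Wistar and 1 SHR library were analyzed. According to the submitters' processing notes, the authors used Cell Ranger 3.0.2 on Rnor_6.0 and Seurat version 3. For each library they deposited a natural log per gene, taken after adding 1 to the sympathetic neuron cluster's mean of counts per 10000. Filters on cells and the treatment of doublets are not given in the sources used here. The authors' table of their own comparison (p-values, fold changes and shares of cells) was not used.

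Values were converted back with Python 3.11.15, NumPy 2.4.6 and pandas 2.3.3. The means of 25399 lines sum to 10000 in each library, and the 4 lines whose name occurs more than once were dropped. Differences are SHR minus Wistar of log2(mean + 1), which understates the change of low genes. Counts past a size use genes averaging at least 0.1 per 10000. With 1 library per strain no test, SD or interval was possible.

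The number of neurons was searched from 20 to 1000. Values shared by at least 2 genes, and not the sum of 2 lower ones, were taken as 1 count in 1 neuron, and a total was testable if rounding moved it by less than 0.1 counts. The largest number at which at least 75% of testable totals were whole was taken, a limit changed more than once, and last loosened after a stricter one missed 1 simulation. Both libraries lie well above it. A first simulation from an invented gene profile did not recover the number. Tested on data then simulated from the real means over 25399 genes, this recovered the number in 6 of 6 simulations. The limit had been loosened after a missed simulation, and all neurons of a simulation shared a single profile. The 6 of 6 is therefore not an independent check of the numbers inferred for real neurons. Counts per neuron are limited to counting and say nothing of the spread between animals.

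The members and lists were chosen with earlier results of these data known. All 10 members are named, with the 3 genes of highest mean in each list of other precursors, processing genes, receptors and noradrenergic, cholinergic and sensory markers, while lists of further cell types are given by sums. Calcrl, Galr2, Npy1r, Ddc, Phox2a, Hand2, Apoe, Ptprc, Trpv1, Scn11a, Pnmt and markers listed at 0 were named after their values were seen. Promoters are from RefSeq on GRCr8, which is not the build of the values.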

Additional observations from a re-analysis of the deposited data

How the results depend on the processing

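No paired analysis was possible because there was a single library for each strain. With no spread between replicates, a log2 difference was taken as moved from 0.1, a percent change from 10 points and a count beyond 1.5 times. None of the 10 genes changed sign under 5 other scalings or pseudocounts of 0.1, 0.01 and 10, and of the 50 values under the scalings 3 moved. Leaving genes out of the total multiplied SHR levels relative to Wistar by only 1.03, 1.00 or 0.999. With the smallest ratio at 1.37 times, for Cartpt, no scaling used here could reverse a sign. Tac1, at -0.014, could hardly move by 0.1, so low genes that stayed the same show nothing about robustness. Another pseudocount leaves every sign as it is. Centring the median log2 ratio of the 7621 genes on 0 multiplied SHR levels by 1.16, and scaling to the noradrenergic markers by 1.17, and the log2 difference of Npy was then -0.32 and -0.31. Under both, the genes lower by at least 1.5 times went from 3 to 2, because Npy was then 1.39 and 1.38 times lower. The median difference of the 10 genes, -0.13, became -0.49, -0.90 and -0.015 with pseudocounts of 0.1, 0.01 and 10, by construction. With no minimum 7 genes were lower by at least 1.5 times and 2 were higher, namely Sst by 1.71 times and Calcb, which has no ratio and is counted because it is listed at 0 in Wistar. With a minimum of 1 per 10000 Npy alone was left, so that 1 gene was lower, 1 was lower by at least 1.5 times, and the median was -0.45. The summed level, lower by a change of -48.9%, changed by -64.6% without Npy.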

Other observations

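Among the other neuropeptide precursors, 5 genes are given here that were picked after their values were seen, 3 of them higher and 2 lower in SHR. Pnoc, the precursor gene of nociceptin, was at 0.217 per 10000 in Wistar and 0.439 in SHR, 2.02 times higher. Apln, the apelin gene, was at 0.0651 and 0.205, 3.15 times higher, and Nppc, the C-type natriuretic peptide gene, at 0.0648 and 0.129. Edn3, the endothelin 3 gene, was lower in SHR, at 0.634 and 0.238 per 10000, and Npff, a precursor gene of RFamide peptides, was at 0.0795 and 0.0224. Apln reached the minimum of 0.1 only through its SHR level, and Nppc and Npff were under it. Of all genes past the minimum, 5.22% were higher and 26.5% lower in SHR by at least 1.5 times. Between 0.01 and 0.1 per 10000 these shares were 10.3% and 49.0%. Among the processing genes that reached the minimum, Pcsk2, which encodes prohormone convertase 2, was higher in SHR, at 0.799 in Wistar and 1.20 in SHR. Pcsk1, which encodes the other main convertase of neuropeptide precursors, was at 0.173 and 0.110, and Pam, whose product amidates NPY, VIP and other peptides at their C terminus, was at 3.09 and 1.65, 1.88 times lower.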
